A study of Mus musculus with 20 samples.

Results

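The SLC25 family of mitochondrial carriers was followed in H3K27ac profiles of hepatocytes from old and young mice. Members were all protein-coding genes on autosomes of the mm10 mouse genome whose symbol begins with Slc25a and a number. The list held 41 of 20659 autosomal protein-coding genes, and 2 further autosomal members were not analysed here. H3K27ac, histone H3 acetylated at lysine 27, marks active promoters and enhancers and was mapped by chromatin immunoprecipitation and sequencing (ChIP-seq). For each gene, every region called by the authors that overlapped the gene or the 5 kb on either side was counted, and its tags (sequenced fragments, scaled by the authors to 10000000 per library) and its length were summed per library.

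SLC25 proteins are small membrane proteins that exchange metabolites across the inner mitochondrial membrane, which most charged molecules cannot cross without a transporter. Each carrier moves a particular set of substances, such as ADP for ATP, phosphate, citrate, amino acids, acylcarnitines, nucleotides, coenzymes or iron. In the liver they link the urea cycle, gluconeogenesis, fatty acid oxidation and lipid synthesis between mitochondria and cytosol. Members whose substance is uncertain are named without a role.

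The old group comprised 5 libraries from hepatocytes of 23-month-old C57BL/6J mice, and the young group 5 libraries from hepatocytes of 5-month-old C57BL/6N mice. No mutation or treatment was named for either age. In both groups hepatocytes, the parenchymal cells of the liver, were taken out by perfusion in 2 steps, and human chromatin was added before immunoprecipitation as a spike-in. Age and substrain coincide and cannot be told apart. Values scaled to the spike-in were not analysed here, so total acetylation cannot be compared between the ages. Whether every library had its own mouse is not stated in the labels, and the p-values therefore rest on a spread between samples that may be technical in part. More cells with an active gene and more acetylation per cell also cannot be told apart in bulk chromatin.

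Libraries held 6295930 to 15544145 tags and 21213 to 30195 regions. IP efficiency, the percentage of tags that fell in regions, was 31.9 ± 4.81% in old and 40.2 ± 6.62% in young libraries (SD, n = 5 each; two-sided exact permutation p = 0.0476), and its part in the results below was not tested beyond the fit with it as a covariate. Old replicate 5 had the lowest IP efficiency (24.53%) and the fewest regions, and young replicate 5 had the most tags and the longest estimated fragment (620 bp). All 6 hepatocyte markers (Alb, Apoa1, Ttr, Apob, Cps1 and Hnf4a) had a region in all 10 libraries. Of the markers of Kupffer cells, Clec4f, Adgre1, Cd5l and Marco had none in any library and Csf1r had one in 1 library. No region was called at 4 of 5 stellate cell markers, 3 of 4 cholangiocyte markers, 3 of 5 lymphocyte markers or 1 of 5 endothelial markers. The markers of these other cell types that were called in all libraries were Stab2, Sox9 and Nkg7. The summed tags of the 6 hepatocyte markers ran from 3298 to 5604 in old and from 5723 to 8447 in young libraries. Over all 20659 genes such sums ran from 2.84e+06 to 4.13e+06 in old and from 4.08e+06 to 5.78e+06 in young libraries. Of the 6 markers 0 passed limma's adjusted threshold over all genes. Their log2 differences, old minus young after each library was centred on its median gene, were all negative, with a median of −0.37. They ran from −0.13 at Ttr to −1.02 at Cps1 (limma adjusted p = 0.0783), 3 had an unadjusted p below 0.05, and DESeq2 called 1. Per kb of called length the log2 differences were 0.24 at Cps1, 0.17 at Apob and 0.03 at Alb. At Ttr, Hnf4a and Apoa1 they were −0.02, −0.06 and −0.19 per kb. The part of these markers in the differences at the carriers was not tested.

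Most carrier genes carried H3K27ac in these hepatocytes. Of the 41 members 28 (68.3%) had at least 1 region in each of the 10 libraries, against 45.7% of all autosomal protein-coding genes. A further 9 members had a region in some libraries, and 4 (9.76%) in none, against 34.5% of all genes. The 4 without a region were Slc25a4, the ADP/ATP carrier of heart and muscle, Slc25a24, an ATP-magnesium/phosphate carrier, Slc25a18, a glutamate carrier, and Slc25a54. A gene without a call may still carry the mark below the 4-fold thresholds over the input and over the surroundings.

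**Figure D1:**
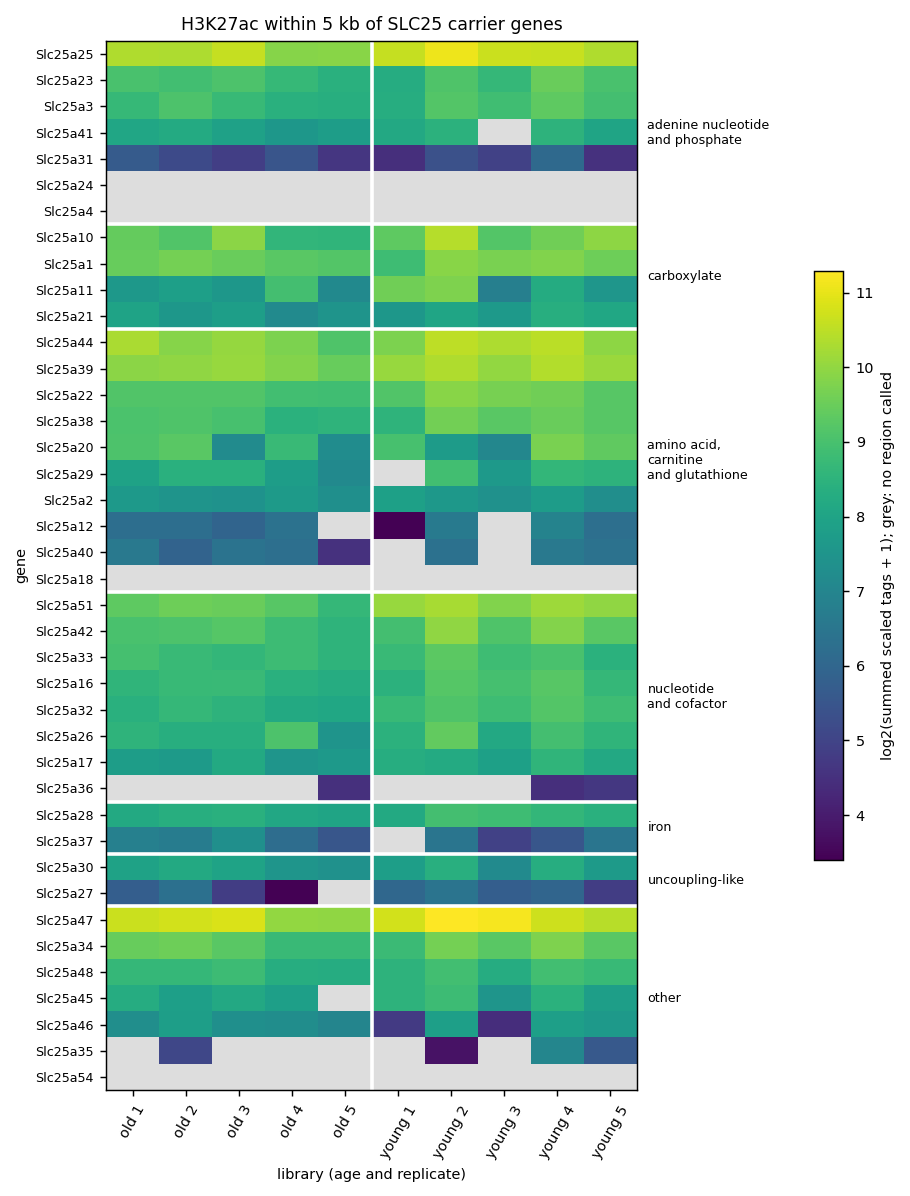
Summed scaled H3K27ac tags (colour, log2 of tags + 1) within 5 kb of each of 40 genes (vertical axis, by transported substance) in each library (horizontal axis, old left of young). Grey cells mark libraries with no region: 4 genes are grey throughout, and 9 in some libraries.

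The density of tags per kb of called length, which does not grow with the size of a region, was highest at Slc25a3, the carrier that brings phosphate into the matrix for ATP synthesis, at a mean of 185 scaled tags per kb over the 10 libraries. Slc25a47, a carrier expressed mainly in liver, followed at 173 and Slc25a39, which brings glutathione into mitochondria, at 141. Over regions at own promoters alone, Slc25a1 had 165 tags per kb and Slc25a39 142, so this ranking depends on the regions counted. Over all regions of the window, the order of Slc25a3, Slc25a47 and Slc25a39 was not firm in single libraries. Slc25a3 had 179, 239, 169, 120.0 and 168 tags per kb in old libraries 1 to 5, against 117, 235, 202, 238 and 188 in young libraries. Slc25a47 had 161, 203, 178.5, 115 and 133 in old libraries, against 202, 216, 226, 167 and 124 in young libraries. Values of both genes overlapped widely between the ages and between each other. At the other end, Slc25a27, a relative of the uncoupling proteins, had 27.02, Slc25a35 had 30.1 and Slc25a31, the testis form of the ADP/ATP carrier, 31.1 tags per kb, of which Slc25a31 alone was called in all libraries.

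**Figure D2:**
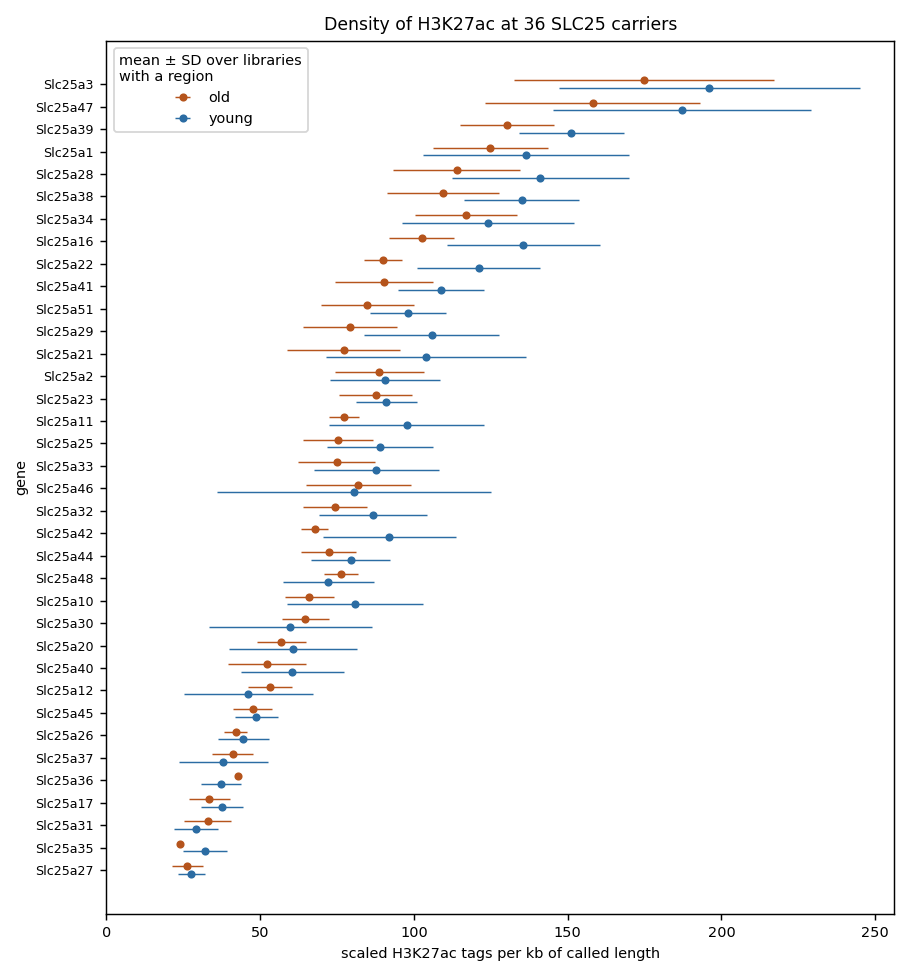
Scaled H3K27ac tags per kb of called length (horizontal axis) at 36 carriers with a region (vertical axis), as the mean and SD over the libraries of each age that called one, old above young. Slc25a3, Slc25a47 and Slc25a39 lead, and the ages overlap at most genes.

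Promoter sequences were available for 30 members, as 300-base windows around the annotated start of transcription from RefSeq (assembly GRCm38.p6, for which mm10 is the browser name). For calls, all windows listed for a gene were used, and a region covered a window if any part of it overlapped. A window was covered in all 10 libraries at 18 of these 30 members (60%), against 30.3% of 16454 genes. In no library was one covered at 5 of the 30, against 7591 of the 16454 genes. The 5 were Slc25a31, Slc25a54, Slc25a24, Slc25a18 and Slc25a4. In the first window listed per gene, the members' promoters held a median of 20.5 CpG dinucleotides, from 1 to 47, against a median of 14 over all genes. Those of the 3 densest genes are shown first, because they differ in this feature: 31 CpG at Slc25a3, 45 at Slc25a39 and 7 at Slc25a47. They are followed by the CpG-rich promoters of Slc25a40 (47), Slc25a36 (29) and Slc25a30 (25), whose calls or values are described below. Each is written 5′ to 3′ on the strand of its gene, with every CG in capitals.
Slc25a3, chr10:91123918-91124217, minus strand: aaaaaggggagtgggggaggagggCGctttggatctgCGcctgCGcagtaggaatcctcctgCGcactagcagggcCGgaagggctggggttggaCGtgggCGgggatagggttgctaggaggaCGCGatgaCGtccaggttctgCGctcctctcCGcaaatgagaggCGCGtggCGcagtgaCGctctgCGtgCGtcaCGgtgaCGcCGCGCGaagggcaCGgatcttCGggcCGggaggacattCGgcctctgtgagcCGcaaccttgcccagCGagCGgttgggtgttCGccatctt
Slc25a39, chr11:102407468-102407767, minus strand: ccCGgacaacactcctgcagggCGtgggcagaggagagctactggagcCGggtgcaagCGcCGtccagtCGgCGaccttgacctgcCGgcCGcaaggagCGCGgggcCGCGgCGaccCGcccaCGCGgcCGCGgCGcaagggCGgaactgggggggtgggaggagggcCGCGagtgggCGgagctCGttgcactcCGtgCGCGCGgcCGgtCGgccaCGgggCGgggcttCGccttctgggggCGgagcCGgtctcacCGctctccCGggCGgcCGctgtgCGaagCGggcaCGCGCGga
Slc25a47, chr12:108850879-108851178, plus strand: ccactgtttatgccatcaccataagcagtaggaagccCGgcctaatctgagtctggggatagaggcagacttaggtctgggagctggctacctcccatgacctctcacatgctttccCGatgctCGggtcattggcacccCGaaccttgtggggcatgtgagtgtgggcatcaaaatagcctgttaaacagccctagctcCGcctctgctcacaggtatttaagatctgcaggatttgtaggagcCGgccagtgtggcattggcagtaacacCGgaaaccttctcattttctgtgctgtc
Slc25a40, chr5:8422588-8422887, plus strand: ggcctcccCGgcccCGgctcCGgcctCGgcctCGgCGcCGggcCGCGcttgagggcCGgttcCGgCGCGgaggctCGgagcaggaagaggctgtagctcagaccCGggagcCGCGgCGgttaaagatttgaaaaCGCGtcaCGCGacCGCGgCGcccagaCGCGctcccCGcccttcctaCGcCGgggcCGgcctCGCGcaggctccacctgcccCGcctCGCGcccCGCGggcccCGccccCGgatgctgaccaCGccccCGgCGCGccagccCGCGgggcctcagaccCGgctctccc
Slc25a36, chr9:97110992-97111291, minus strand: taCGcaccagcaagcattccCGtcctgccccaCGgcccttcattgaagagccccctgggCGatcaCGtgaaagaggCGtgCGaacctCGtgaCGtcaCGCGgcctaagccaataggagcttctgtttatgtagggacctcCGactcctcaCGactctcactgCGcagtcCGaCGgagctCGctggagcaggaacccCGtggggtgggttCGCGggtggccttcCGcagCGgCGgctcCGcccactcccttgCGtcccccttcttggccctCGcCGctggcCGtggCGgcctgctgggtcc
Slc25a30, chr14:75786988-75787287, minus strand: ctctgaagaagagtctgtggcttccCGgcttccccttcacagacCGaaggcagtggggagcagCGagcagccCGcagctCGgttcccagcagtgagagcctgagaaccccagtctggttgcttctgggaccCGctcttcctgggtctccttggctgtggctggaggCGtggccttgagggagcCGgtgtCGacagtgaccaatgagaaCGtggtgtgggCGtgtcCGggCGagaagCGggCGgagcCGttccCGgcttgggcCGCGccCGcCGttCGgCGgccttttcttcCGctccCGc

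The first window listed for each gene was searched on both strands for short motifs, and a match describes letters only. CCAAT, the core of the NF-Y site, was found in 16 of the 30 promoters (53.3%, against 38.9% of all promoters), among them Slc25a47, Slc25a30 and Slc25a36. CCGGAAG, an ETS site, was found in 7 (23.3%, against 12.2%), among them Slc25a3. The E box CACGTG was found in 4 (13.3%, against 7.96%), including Slc25a36. TATAAA was found in 1, Slc25a18 (3.33%, against 13.5%). The NRF1 site with 1 base open was found in 2, Slc25a3 and Slc25a31 (6.67%, against 6.81%), and its exact form in 0 (1.36% of all promoters). The D box letters TTATGTAA and TTACGTAA and the nuclear receptor repeat DR1 were found in 0 of the 30, against 0.918%, 0.0972% and 0.0486% of all promoters. Apart from the open NRF1 form, which includes the exact one, none of these motifs contains another.

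Neighbouring genes share much of this acetylation. The 10 lists, merged where they overlapped, gave 114 regions at members. Of these 39 were called in all 10 libraries, against 12550 of 46767 merged regions in the whole genome, and 29 in a single one. At least 26 covered a promoter of the member itself, which could be judged only for the 30 members with a promoter sequence. Of the 39 regions, 22 also lay in the window of another protein-coding gene. Shares over all regions are not given here for regions called once or lying in another window, so sharing is not read as particular to carriers. The only region of Slc25a41, an ATP-magnesium/phosphate carrier, covered the promoter of Khsrp. The strongest region of Slc25a20, the carnitine/acylcarnitine carrier that brings fatty acids to oxidation, covered that of Prkar2a, with 394 scaled tags in old and 521 in young libraries. Not all called pieces of that region reached the window of Slc25a20, whose sums averaged 378 in old and 470 in young libraries. The region at the promoter of Slc25a20 itself had 119 tags in old and 136 in young libraries. Slc25a11, the oxoglutarate/malate carrier of the malate-aspartate shuttle, shared its promoter region with Rnf167, and Slc25a38, the glycine carrier of haem synthesis, had a second region at Rpsa. The only region of Slc25a40 covered the promoter of Dbf4 as well as its own, and the strongest region of Slc25a30 covered that of Cog3. Sums at these genes therefore do not belong to the carrier alone.

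The main question was whether hepatocytes of old mice differ from those of young mice in H3K27ac at these genes. No carrier gene passed the test of summed signal. In limma with Benjamini-Hochberg adjustment over all 9445 genes with a region in every library, 0 of the 28 testable members had an adjusted p below 0.05, where 21 genes in all (0.222%) did, 0.127% higher and 0.0953% lower in old libraries. edgeR called 0 of the 28, against 0.508% of all genes, and DESeq2 called 1 (3.57%), Slc25a51, against 3.06% of all genes, so that its share is near the background. At an unadjusted p below 0.05 limma had 2 of 28 members (7.14%), against 13.8% of all tested genes. The centred log2 difference was positive at 12 and negative at 16 members. Its median was −0.01, against 0.00 over all tested genes. Without centring the median difference over all genes was −0.34, so a member can have fewer tags in old libraries and still a positive difference.

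**Figure D3:**
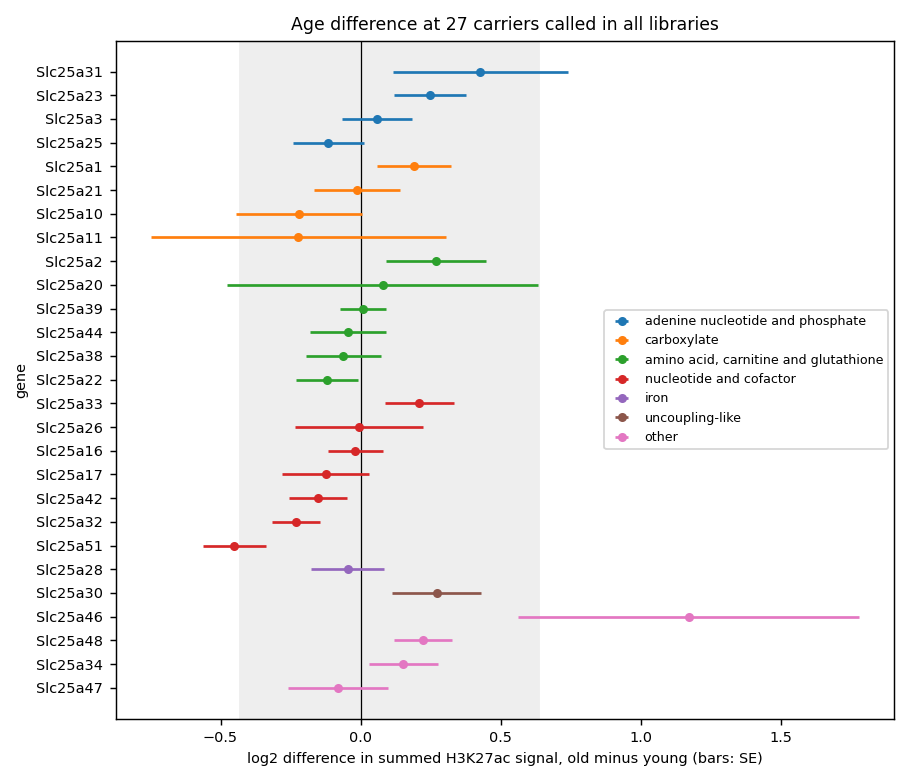
Log2 difference in summed H3K27ac signal, old minus young (horizontal axis, points with SE), at 27 carriers called in all libraries (vertical axis), coloured by transported substance. The grey band, from −0.43 to 0.64, leaves out the outer tails of all 9445 tested genes, and of the 27 only Slc25a51, on the negative side, and Slc25a46, with the widest error, lie outside it.

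Slc25a51, the carrier that brings NAD into mitochondria, had the largest decrease among the 28. Its sums were 645, 748, 722, 606.5 and 404 scaled tags in old libraries 1 to 5, against 1082, 1220, 894, 1121 and 1003 in young libraries. Every old library lay below every young one, with means of 625 ± 136 in old and 1064 ± 123 in young (SD, n = 5 each). The log2 difference was −0.45 ± 0.11 (SE), and limma's adjusted p over all genes was 0.118. Centred values of the ages did not overlap at 2 of the 28 members (7.14%), against 3.95% of all tested genes. Both members, Slc25a51 and Slc25a32, were lower in old libraries, as were 1.93% of all genes, and 2.02% were higher.

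The signal of Slc25a51 lay in 1 merged region (chr4:45403127-45415620) at the end of the gene with the higher coordinate (gene chr4:45395923-45408917), which touched the window of no other protein-coding gene. Tested as a region called in all libraries, it fell by 0.49 on the log2 scale (SE 0.11, limma adjusted p = 0.0464). It was the 1 region of the members' 39 to pass, where 134 of 12550 such regions (1.07%) did, 0.534% in the lower direction. The call was lost without any one of 9 libraries, at adjusted p from 0.0634 to 0.111, and held without young replicate 1 (0.0483). edgeR gave an adjusted p of 0.0588 and DESeq2 0.00209, and with IP efficiency as a covariate limma gave 0.227. At an unadjusted p below 0.05 there were 6 of the 39 regions (15.4%), against 17.2% of all. The other 5 were at Slc25a42, a coenzyme A carrier, at Slc25a32, and at the flanks of Slc25a11, Slc25a10 and Slc25a38 over the promoters of Pfn1, Mrpl12 and Rpsa, all with negative differences.

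The called length of Slc25a51 moved with its signal. The longest called piece was 4507, 9470, 5180, 5735 and 4306 bp in old libraries 1 to 5, against 10644, 10363, 7270, 9241 and 10245 bp in young libraries. Old replicate 2 lay inside the young range and the other 4 old libraries below it. Summed length averaged 7461 bp in old and 10863 bp in young libraries, a log2 difference of −0.41 (limma adjusted p = 0.399). Density was 84.8 ± 15.2 scaled tags per kb in old and 98.1 ± 12.4 in young libraries, and per kb the region's centred difference was −0.05 (limma adjusted p = 0.901). With only regions whose score reached the lower quartile of all scores, the sign of the difference turned. It was 0.54 for the region and 1.25 ± 0.95 (SE, limma adjusted p = 0.729) for the gene. Over all members 0 of 28 passed limma's test of called length, where 1 of 9445 genes (0.0106%) did. At an unadjusted p below 0.05 there were 2 members, Slc25a51 and Slc25a46, against 9.63% of all genes.

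**Figure D4:**
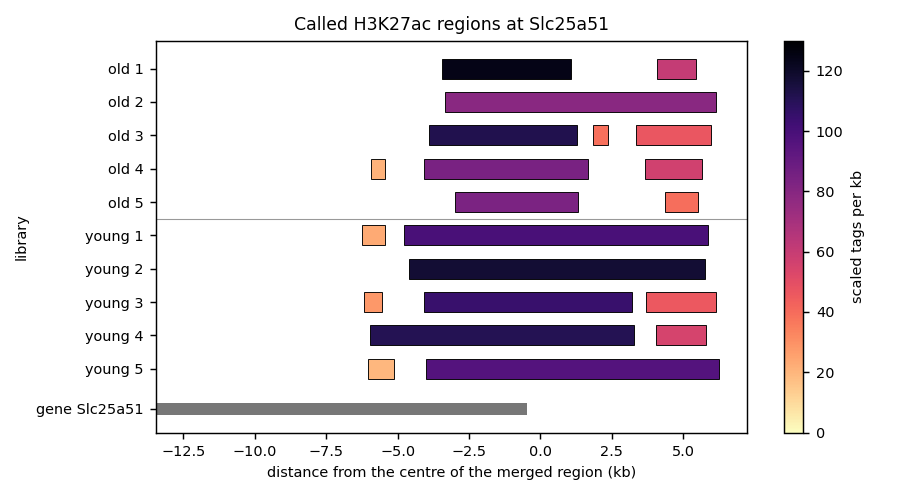
Called H3K27ac pieces at Slc25a51 in each library (vertical axis, old above young), by distance from the centre of the merged region in kb (horizontal axis) and coloured by scaled tags per kb. The grey bar is the gene. In 4 of 5 old libraries the central piece ends between 1079 and 1676 bp right of the centre, while in young libraries it runs to between 3198 and 6247 bp.

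Among the 9 carriers of nucleotides and cofactors 8 were testable, 7 of them with negative differences and 0 past the threshold (median −0.14). Slc25a32, a carrier of folate and FAD, had 337, 401, 363, 292 and 275 scaled tags in old libraries, against 422, 555, 459, 578 and 459 in young libraries. No old library reached a young one, with a difference of −0.23 ± 0.09 (SE, limma adjusted p = 0.274). Per kb of called length it was −0.02 (limma adjusted p = 0.968). Slc25a42 had −0.15, Slc25a17, a peroxisomal carrier of cofactors, −0.12, Slc25a16 −0.02 and Slc25a26, the S-adenosylmethionine carrier, −0.01. The positive value, 0.21, was at Slc25a33, a pyrimidine nucleotide carrier. Slc25a36, a close relative, was called in old replicate 5 and in young replicates 4 and 5 only, with 21.0 to 24.8 tags over its promoter of 29 CpG shown above.

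Of the 7 carriers of adenine nucleotides and phosphate 4 were testable (median 0.15, 3 positive, 0 past the threshold). Slc25a25, an ATP-magnesium/phosphate carrier, had the most tags of them, 1207 ± 262 in old and 1645 ± 315 in young libraries (−0.11, limma adjusted p = 0.708), and its relative Slc25a23 had 0.25 (limma adjusted p = 0.413). Slc25a3 had 408, 546, 423, 338 and 325 scaled tags in old libraries, against 318, 580.5, 471, 651 and 488 in young libraries. Its difference of 0.06 ± 0.13 (SE) changed sign without old replicate 2 or young replicate 1. Slc25a31 had 49.2, 35, 28.3, 44.0 and 23.8 tags in old libraries, against 20.9, 40.3, 29.3, 67.6 and 22.2 in young libraries. That difference was 0.43 ± 0.31 (SE, limma adjusted p = 0.557), or 0.09 without centring, and the region lay beside the gene and not over its promoter, which no library called. Slc25a41 was called in all 5 old libraries and in 4 young ones, missing in young replicate 3.

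All 4 carboxylate carriers were testable (median −0.12, 3 negative, 0 past the threshold). Slc25a1, which exports citrate for lipid synthesis, had 682 ± 88.8 scaled tags in old and 776 ± 195 in young libraries (0.19, limma adjusted p = 0.536). Slc25a10, the dicarboxylate carrier, had 595 ± 242 in old and 867 ± 321 in young libraries (−0.22, limma adjusted p = 0.683). Slc25a21, an oxodicarboxylate carrier, had −0.01. Slc25a11 had 194, 228.5, 189.9, 490.4 and 141 tags in old libraries, against 760.4, 862, 111.0, 306 and 184 in young libraries. The highest values, in old replicate 4 and young replicates 1 and 2, were those in which a second region on the Pfn1 side reached the window. The difference of −0.22 came with an SE of 0.53.

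Of the 10 carriers of amino acids, carnitine and glutathione 6 were testable, 3 with positive and 3 with negative differences (median −0.02, 0 past the threshold). Slc25a39 had 960.3, 1013.5, 1087, 907 and 705 scaled tags in old libraries, against 1079, 1308.5, 1030.5, 1333 and 1104 in young libraries. After centring, the ages differed by 0.01 ± 0.08 (SE), the smallest error among the 28. Slc25a44, a carrier of branched-chain amino acids, had −0.04, Slc25a22, a glutamate carrier, −0.12, Slc25a38 −0.06 and Slc25a20 0.08, with an SE of 0.55. Sums of Slc25a20 were 132 to 210 tags in old replicates 3 and 5 and young replicates 2 and 3, and 430 to 837 in the other libraries. Slc25a2, an ornithine carrier, had 0.27, but its region lay outside the gene.

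Calls differed between libraries at 3 further genes of this group. Slc25a40, the relative of Slc25a39, was called in all 5 old libraries, with 94.4, 58.9, 84.3, 76.9 and 22.2 scaled tags. Young replicates 2, 4 and 5 had 79.5, 95.8 and 81.7 tags, and young replicates 1 and 3 had no region over the promoter of 47 CpG shown above. The merged region there also covered the promoter of Dbf4. Slc25a12, the aspartate/glutamate carrier of heart, muscle and brain, was called in 4 libraries of each age and missing in old replicate 5 and young replicate 3. It had 61.0 to 81.1 tags in the 4 old libraries and 9.6 to 121 in the 4 young ones. Slc25a29, a carrier of basic amino acids, was missing in young replicate 1, with 141 to 339 tags in old and 204 to 477 in the other young libraries.

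Among the iron carriers, Slc25a28 had 299 ± 33.5 scaled tags in old and 395 ± 82.3 in young libraries (−0.05, limma adjusted p = 0.901). Slc25a37, the form best known from developing red cells, had 113, 104, 159.7, 73.1 and 44.5 tags in old libraries, against 0, 88.1, 29.3, 44.7 and 87.1 in young libraries. The ages overlapped, and the gene was not tested because young replicate 1 had no region. Of the 2 relatives of the uncoupling proteins, Slc25a30 had 243, 291, 252, 183 and 166 tags in old libraries, against 224, 329, 142, 316 and 207 in young libraries. Its difference was 0.27 ± 0.16 (SE, limma adjusted p = 0.469) and became 0.14 without young replicate 3 and −0.07 without centring. The strongest region of Slc25a30 lay over the promoter of Cog3, with 141 ± 44.4 tags in old and 120 ± 91.8 in young libraries (SD, n = 5 each). It was called in 5 old and 4 young libraries, and the young mean counts the library without a call as 0. The region at the promoter of Slc25a30 itself had 75.0 tags in old and 97.1 in young libraries (−0.005, limma adjusted p = 0.993). The gene's fit with only regions at own promoters gave 0.21 ± 0.31 (SE). Slc25a27 had 53.2, 78.7, 27.7, 9.5 and 0 tags in old libraries, against 64.0, 85.8, 53.1, 61.7 and 27.4 in young libraries, and the ages overlapped.

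Of the 7 remaining members 4 were testable (median 0.19, 3 positive, 0 past the threshold). Slc25a47 had the largest sums of the family, 1602, 1713, 1843, 1042 and 1018 scaled tags in old libraries, against 1724, 2509, 2327, 1651 and 1387 in young libraries. Old replicates 4 and 5 lay below all young libraries and the other 3 among them, with −0.08 ± 0.18 (SE, limma adjusted p = 0.866). Slc25a46, a protein of the outer membrane that takes part in mitochondrial fission and fusion, had 155.5, 226, 160.3, 154 and 125.5 tags in old libraries, against 25.5, 233, 20.4, 229.7 and 204 in young libraries. The largest positive difference of the 28, 1.17 ± 0.61 (SE, limma adjusted p = 0.412), rested on young replicates 1 and 3, where no region was called at one end of the gene. It was 0.79 without young replicate 1 and 0.69 without young replicate 3. Without both it was 0.03 ± 0.15 (SE, limma adjusted p = 0.939).

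The other members of this group had smaller differences or few calls. Slc25a48, a choline carrier, had 0.22 (limma adjusted p = 0.366) and Slc25a34 0.15. Slc25a45 was missing in old replicate 5, with 231 to 309 scaled tags in the other old libraries and 184 to 453 in young ones. Slc25a35 was called in old replicate 2 (32.5 tags) and in young replicates 2, 4 and 5 (12.7, 128 and 47.9).

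The number of carriers with a region was 35, 36, 35, 35 and 33 in old libraries 1 to 5, against 32, 36, 32, 37 and 37 in young libraries. Of all autosomal protein-coding genes 58.0, 58.6, 57.7, 58.7 and 54.2% had a region in old libraries, against 52.6, 59.5, 52.0, 60.7 and 60.1% in young libraries. Mean numbers of carriers were 34.8 ± 1.10 in old and 34.8 ± 2.59 in young (SD, n = 5 each). The number of regions at carriers was 77.4 ± 5.41 in old and 81 ± 8.37 in young. With lists of equal length the direction of the regions' difference turned, at 69 regions in old and 66.8 in young, and with a library left out the difference lay between −6.35 and −0.85. Fisher exact tests of calls, adjusted over the 4078 genes called in some libraries, passed for 0 of the 9 members and for 0 genes in all (0%). At an unadjusted p below 0.05 there were 0 members and 24 genes (0.589%). Exact permutation tests of the number of regions passed for 0 of 37 members and 0 of 13523 genes, with 0 members and 258 genes (1.91%) at an unadjusted p below 0.05. The smallest p that 5 against 5 libraries allow is 0.00794.

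Young replicates 1 and 3 stood apart at promoters. They had called 19 and 22 of the 30 carrier promoters, while the other young libraries had 24 to 25 and old libraries 23 to 24. Over all genes these 2 libraries called 54.4% and 54.9% of the CpG-rich promoters, those with at least the median of 14 CpG, where the other 8 called 66.4 to 77.8%. Among CpG-poor promoters the shares were 18.3% and 17.6%, where the other 8 called 18.6 to 23.4%. The missing calls at the Slc25a40 promoter and at one end of Slc25a46 fell in these 2 libraries. A call needed 4-fold over the input, and the input was high in these 2 libraries at some called genes. At Slc25a16 they had 21.4 and 19.3 scaled input tags per kb, against 6.47 to 7.85 in the other young and 7.44 to 13.5 in old libraries. At Slc25a30 young replicate 3 had the lowest input, 3.42, but input was measured only over the regions that each library called. The region of Slc25a30 at the Cog3 promoter was called in 4 young libraries only, so its values need not cover the same regions. Because a call also depends on the input, a missing call does not show that acetylation was absent. The part of the input was not tested. How far the promoter calls in young replicates 1 and 3 contribute to the differences above was not tested beyond the fits without them.

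**Figure D5:**
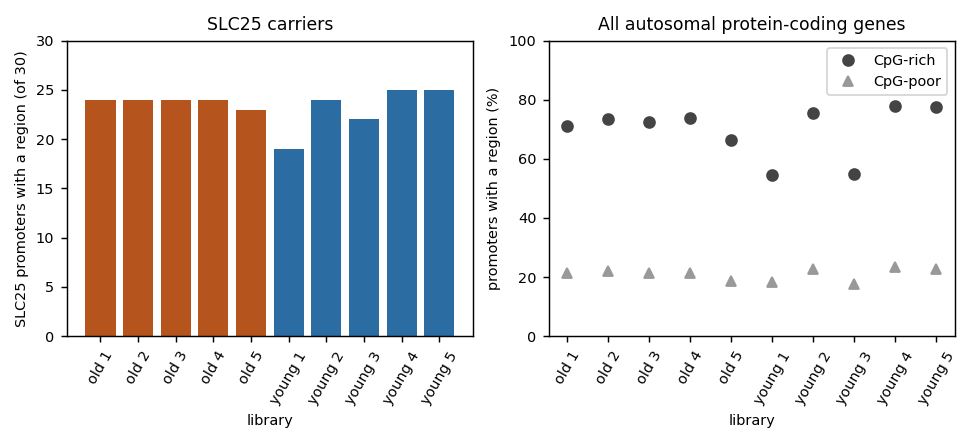
Left: number of the 30 SLC25 promoters with a region (vertical axis) in each library (horizontal axis), from 23 to 24 in old and 19 to 25 in young libraries. Right: percent of all autosomal protein-coding promoters with a region, split at the median CpG number. Young replicates 1 and 3 are low among CpG-rich promoters.

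Of 39 related genes of mitochondrial transport and of the enzymes beside it 32 were testable, and 0 passed the threshold in limma, edgeR or DESeq2. There were 14 positive and 18 negative differences (median −0.06), and 6 (18.8%) had an unadjusted p below 0.05 in limma, against 13.8% of all tested genes, 4 of them in the list of carrier import. Of the 10 testable genes that import carriers into the inner membrane 8 were negative (median −0.16), among them the receptor subunit gene Tomm22 (−0.37, limma adjusted p = 0.284) and the chaperone gene Timm9 (−0.35, limma adjusted p = 0.28). The aspartate aminotransferase Got2, which works beside the aspartate/glutamate carriers, had 584.5 ± 116 scaled tags in old and 893 ± 106 in young libraries (−0.29, limma adjusted p = 0.274). Per kb of called length the difference was −0.05 at Got2, −0.37 at Tomm22 and −0.31 at Timm9. Both genes of the mitochondrial pyruvate carrier had positive values, 0.19 at Mpc1 and 0.11 at Mpc2, and the acylcarnitine enzyme genes Cpt1a and Cpt2 had 0.12 and 0.11. Of the carriers under other symbols, Ucp1, the uncoupling protein of brown fat, had a region in no library, and Ucp2 and Ucp3 in 3 and 6.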

How the data were processed

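H3K27ac libraries, 5 old and 5 young, were grouped by their labels. Region calling by the authors used HOMER's histone mode, per the file headers, for each library against its own input, without pooling. Peaks of 500 bp at least 1000 bp apart were stitched, with 4-fold over input at a Poisson p-value of 1e-04 and 4-fold over the surrounding 10000 bp. Coordinates are mm10 per the submitters' processing notes, and an aligner is not given in the sources used here. As signal, the authors deposited for each region its tags scaled to 10000000 per library, and the input signal was scaled by the authors to the matched library. The unscaled tags, in steps of 0.5, were deposited by the authors and treated here like expected counts, rounded to whole numbers. The HOMER score, the fold over input and the p-value of each region are the authors' own per the file headers, and the score was used only to filter. Other values, the region lengths in bp, were deposited and equalled end minus start.

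Regions overlapping a gene's span extended by 5 kb by at least 1 bp were assigned to that gene, using a RefSeq table of GRCm38.p6. Summed tags were tested with limma 3.58.1 (mean-dependent prior) on log2(tags + 1), centred per library on the median tested gene, which understates changes of low genes. Genes had to be called in all 10 libraries, and p-values were adjusted over all of them by the Benjamini-Hochberg method at 0.05. edgeR 4.0.16 (quasi-likelihood), DESeq2 1.42.0 and the other settings of the closing section were alternatives. R 4.3.3, Python 3.11.15, numpy 2.4.6, pandas 2.3.3, scipy 1.17.1 and matplotlib 3.10.9 were used, and the limma step was tested on simulated data. A library's sum rises with the called length, so tags per kb are given beside it for some genes. At the other genes a difference in the sum may be one of called length. The members and lists were chosen with earlier results of these data known. Values in every library were printed for members without overlap between ages, the 3 largest differences each way, the 3 densest and those not called in every library (for some of these as a range). Slc25a11 was added after its values were seen, and other members are given by mean or difference. Another member enters all counts and medians, but its own values are not reported here.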

Additional observations from a re-analysis of the deposited data

Results flagged for a closer look

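Slc25a11 in old replicate 4 had 490.4 scaled tags, far above the next old library at 228.5, and was the 1 outlying library among 56 groups of 5 tested by Dixon's criterion, which chance alone would meet in about 1 of 20 groups. In that library a second region, over the promoter of Pfn1, reached the window of the gene, as it did in young replicates 1 and 2.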

How the results depend on the processing

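Of the 28 tested members, 0 passed on summed signal in 24 of 26 alternatives, while 1, Slc25a51, passed without centring (adjusted p = 0.0499) and in DESeq2. Among the members' regions called in all libraries, 0 to 1 passed with a single library left out. The count was 0 without young replicates 1 and 3, with the replicate block, cyclic loess, IP efficiency as covariate, the score filter, tags per kb, edgeR or input subtraction, and 2 without centring. The log2 difference of the Slc25a51 region was −0.54 to −0.44 with a library left out, −0.48 without young replicates 1 and 3, −0.49 with the replicate block (adjusted p = 0.106), −0.40 with loess, −0.49 with the covariate, −0.0502 per kb, −0.46 in edgeR, −0.48 after input subtraction and 0.54 with the score filter (gene 1.25). Over all genes the 21 calls became 2 to 66 with a library left out, 111 without young replicates 1 and 3, 4 with the replicate block, 135 without centring (3 higher, 132 lower, against 12 and 9), 56 with loess, 0 with the covariate, 0 with the score filter, 9 per kb, 48 in edgeR, 289 in DESeq2, 54 with regions of no other gene's window, and 1 or 0 with genes called in at least 5 or at least 1 library. The members' median of −0.01 became −0.36 without centring and 0.0819 with regions at the gene's own promoter, an alternative chosen after seeing the data. Signs turned at Slc25a30 (without centring −0.0679, own window only −0.14) and Slc25a47 (0.13 without young replicates 1 and 3, and −0.20 to 0.0418 with a library left out). Slc25a3 had −0.0319 to 0.0941 with a library left out, −0.0140 without young replicates 1 and 3 and −0.28 without centring. Slc25a39 had −0.0219 to 0.0448 with a library left out, −0.33 without centring, −0.0580 with the covariate, −0.00106 with the score filter, −0.0350 per kb, and −0.0244 and −0.0454 with genes called in at least 5 or 1 library. Replicate numbers did not pair the samples (correlations of same-numbered libraries −0.06 to 0.18). The causes of these changes were not tested. Sums near the calling threshold, such as those of Slc25a31 and Slc25a36, rest on few tags.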
